A study of Homo sapiens with 6 samples.

Results

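Chromatin accessibility was examined around HNRNPU and 8 other genes for its paralogs and for nuclear matrix or scaffold proteins, which are HNRNPUL1, HNRNPUL2, SAFB, SAFB2, SLTM, MATR3, NUMA1 and SATB1. The 9 genes were taken by name from the 20037 protein-coding genes of the RefSeq table of GRCh38.p14, and the window of a gene reached from 20 kb before to 20 kb after it. The windows held 231 of the 356720 summits of the series. A summit is the position of strongest signal in a peak of open chromatin. Summits lying within 250 bp of each other were joined into 67 loci, of 123131 loci in all. The score of a summit is the −log10 of its q-value in its own library, and scores were compared as percentiles, from 0 for the weakest to 100 for the strongest summit of a library.

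The series holds 6 ATAC-seq libraries of H1, a line of human pluripotent stem cells, made with a transposase that cuts open chromatin. The cells were kept in mTeSR1 medium, received a lentiviral short hairpin RNA and were selected with puromycin. There were 2 libraries each for the hairpins shHNRNPU #1 and shHNRNPU #2, both against HNRNPU, and 2 for shLUC, a control hairpin against luciferase. The labels call the libraries repeats and do not say whether repeats were separate cultures, so tests measure only the spread between these libraries. All 6 went through the same infection and selection, and the labels give no time point after selection and no clone. Hairpins act on the transcript, which summits do not measure, so neither the knockdown nor the expression of any paralog can be read from these data. The lists held 52168 to 63519 summits, with read depth not given. Of 6 genes marking pluripotent cells, 5 had a summit near the gene (within 2000 bp of its start or end) in every library and LIN28B had one in none. Of 6 markers of other cell types, none had such a summit in every library, ALB, PTPRC and GFAP had one in no library, CD3E and MYH6 in 4 and KRT5 in 1.

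HNRNPU, also called scaffold attachment factor A, is an abundant nuclear protein that binds RNA, and binds AT-rich DNA through a SAP domain. HNRNPUL1 and HNRNPUL2 are its closest relatives, and the SAFB, SAFB2 and SLTM proteins form a separate family that also joins a SAP domain to an RNA-binding domain. Matrin 3, the product of MATR3, NUMA1 and SATB1 are other proteins found in nuclear matrix preparations, with roles in RNA processing, in the mitotic spindle and in folding of chromatin. The comparison asked whether chromatin at the target and its relatives was more or less open in the 4 shHNRNPU libraries than in the 2 shLUC libraries, as could be looked for if relatives of a depleted protein took its place.

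The promoters of the target, both paralogs, the SAFB pair and MATR3 are shown because the strongest or most shifted summits beside these genes lay there. Each is the RefSeq promoter of GRCh38, from 250 bases before to 50 bases after a transcription start, on the coding strand. Capitals mark the stretch from the first to the last library summit inside the promoter.

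HNRNPU, chr1:244864494-244864793, minus strand: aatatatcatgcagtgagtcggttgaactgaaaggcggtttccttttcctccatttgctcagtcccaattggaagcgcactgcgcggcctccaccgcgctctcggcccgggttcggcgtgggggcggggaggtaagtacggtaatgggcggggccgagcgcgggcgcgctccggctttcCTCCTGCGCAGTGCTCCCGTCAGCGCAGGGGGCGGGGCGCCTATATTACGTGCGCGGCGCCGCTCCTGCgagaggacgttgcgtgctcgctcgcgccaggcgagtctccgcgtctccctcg
HNRNPUL1, the second of its starts, chr19:41264122-41264421, plus strand: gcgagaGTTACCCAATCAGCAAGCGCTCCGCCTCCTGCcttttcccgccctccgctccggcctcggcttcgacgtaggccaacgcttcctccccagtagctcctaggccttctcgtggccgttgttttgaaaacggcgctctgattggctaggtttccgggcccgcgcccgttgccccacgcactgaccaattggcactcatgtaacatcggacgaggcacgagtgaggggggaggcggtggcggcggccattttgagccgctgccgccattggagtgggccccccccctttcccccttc
HNRNPUL2, chr11:62727408-62727707, minus strand: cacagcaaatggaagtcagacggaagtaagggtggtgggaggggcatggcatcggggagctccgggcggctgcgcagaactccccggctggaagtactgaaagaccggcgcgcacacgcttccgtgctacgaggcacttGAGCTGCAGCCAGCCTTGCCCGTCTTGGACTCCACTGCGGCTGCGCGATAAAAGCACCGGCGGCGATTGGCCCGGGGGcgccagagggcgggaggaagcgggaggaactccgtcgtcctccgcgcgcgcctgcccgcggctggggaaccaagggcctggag
SAFB, shared head to head with SAFB2, chr19:5622833-5623132, plus strand: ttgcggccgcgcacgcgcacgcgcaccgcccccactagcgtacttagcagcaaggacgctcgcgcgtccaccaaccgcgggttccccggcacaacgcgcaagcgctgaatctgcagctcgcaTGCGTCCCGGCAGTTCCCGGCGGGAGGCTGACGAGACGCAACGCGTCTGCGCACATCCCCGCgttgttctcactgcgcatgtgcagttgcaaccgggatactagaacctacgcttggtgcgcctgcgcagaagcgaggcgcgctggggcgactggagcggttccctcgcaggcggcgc
MATR3, the first of its starts, chr5:139273851-139274150, plus strand: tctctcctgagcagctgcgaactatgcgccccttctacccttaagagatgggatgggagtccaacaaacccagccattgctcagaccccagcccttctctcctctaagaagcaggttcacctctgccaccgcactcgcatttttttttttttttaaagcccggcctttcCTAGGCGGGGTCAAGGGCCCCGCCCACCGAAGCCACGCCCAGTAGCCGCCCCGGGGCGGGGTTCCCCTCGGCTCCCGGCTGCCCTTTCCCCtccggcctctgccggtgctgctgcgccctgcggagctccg

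These promoters were rich in G and C. The share of G and C was 67.0% in the HNRNPU promoter, 65.0% in that of HNRNPUL1, 68.3% for HNRNPUL2, 68.7% for SAFB and 63.3% for MATR3, against a median of 58.7% over 35116 RefSeq promoters. The number of CpG dinucleotides was 40, 27, 31, 44 and 19 in the same order, against a median of 14. Motifs were searched on both strands of the 15 promoters of the 9 genes. The GC box GGGCGG, held by 45.0% of all promoters, occurred 3 times in the HNRNPU promoter, 2 times in that of HNRNPUL2, 1 time each in those shown for HNRNPUL1 and SAFB, and 3 times in the MATR3 promoter shown. The CCAAT box, held by 34.6% of all promoters, occurred 2 times for HNRNPU, 5 times for the HNRNPUL1 promoter shown and 1 time for HNRNPUL2. The motif of BANP, a DNA-binding protein of the nuclear matrix, is held by 0.424% of promoters and occurred 1 time among the member promoters, at the second of the MATR3 starts. TATAAA, held by 11.5% of promoters, the NRF1 motif, held by 1.24%, and CCGGAAGT, an ETS motif held by 4.14%, were in none of the 15 windows. GCCATNTT, the YY1 motif held by 6.58%, was present 1 time each at HNRNPUL1, SAFB2, SLTM and SATB1. A match is a run of letters and does not show that a factor was bound.

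**Figure D1:**
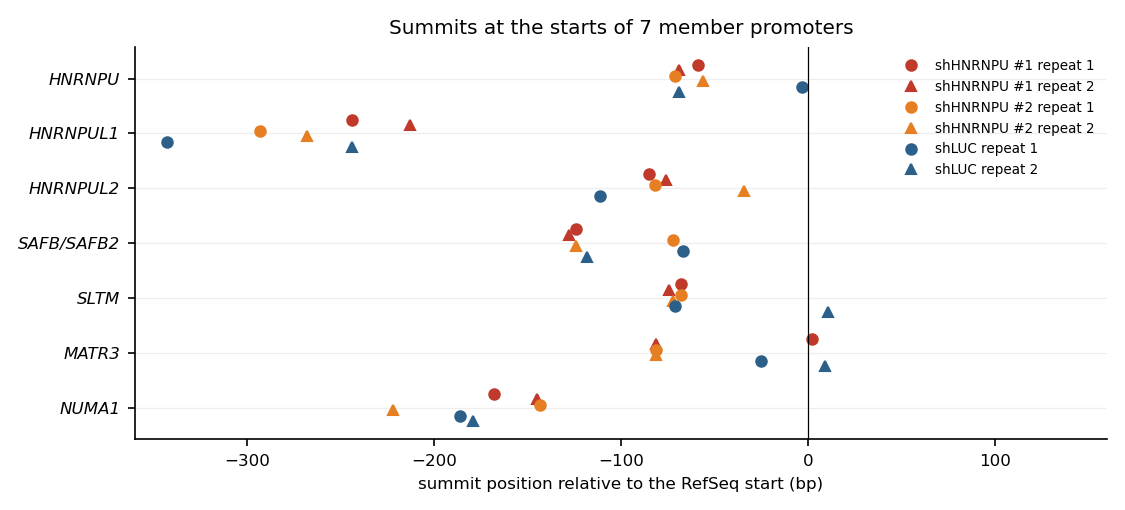
Position of the summit of each library (horizontal axis, bp relative to a RefSeq start, negative values before the start) at 7 member promoters (rows), with colour for the hairpin and shape for the repeat. Most summits lay before the start, the farthest at −343 bp, and HNRNPUL2 has 5 points because shLUC repeat 2 had no summit within 250 bp of the locus.

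At the HNRNPU promoter, summits lay at −59 and −69 bp from the start in the shHNRNPU #1 libraries, at −71 and −56 bp in the shHNRNPU #2 libraries and at −3 and −69 bp in the shLUC libraries. At the shared SAFB promoter they lay at −124, −128, −72 and −124 bp in the shHNRNPU libraries and at −67 and −118 bp in the shLUC libraries. The stretches in capitals therefore span at most 91 bases in the sequences above, and for HNRNPUL1 they hold 3 of the 6 summits, since the others lay before the sequence shown. At MATR3, 3 of the 4 shHNRNPU libraries had their summit at the same base, −81 bp, and the others lay at 2 bp in shHNRNPU #1 repeat 1 and at −25 and 9 bp in shLUC. With 1 bp per library, and no count of reads behind it, the position of a summit within a peak was not compared between groups.

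The 9 windows as a whole held slightly more summits in the shHNRNPU libraries. There were 42 and 40 summits with shHNRNPU #1, 41 and 38 with shHNRNPU #2, and 33 and 37 with shLUC. Every shHNRNPU library thus held more than either control. The means were 40.25 ± 1.71 (SD, n = 4) and 35 ± 2.83 (SD, n = 2), a difference of 5.25 summits. Per 10000 summits of the library they were 6.93 ± 0.435 (SD, n = 4) and 5.67 ± 0.511 (SD, n = 2). The difference was 3.25 summits without shLUC repeat 1, 7.25 without shLUC repeat 2 and 2.5 with windows reaching only 5 kb beyond the genes. No test was made over the 9 genes together, since they were chosen with results of these data known.

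**Figure D2:**
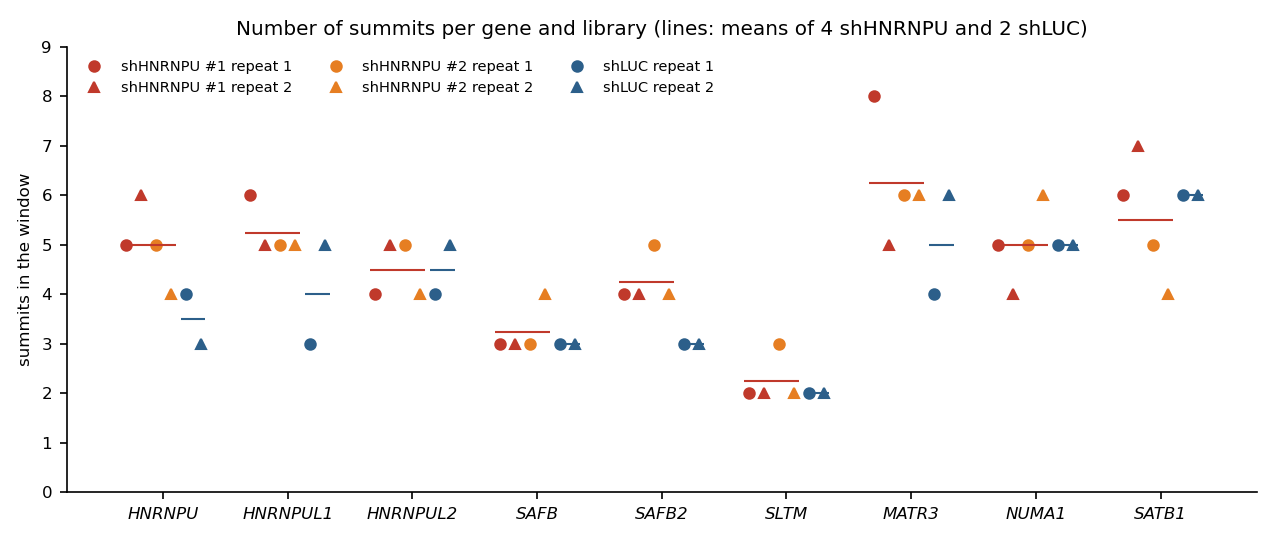
Number of summits (vertical axis) in the window of each gene in each of the 6 libraries, with horizontal lines for the means of the 4 shHNRNPU and the 2 shLUC libraries. The groups are apart at SAFB2 and share values or interleave at the other 8 genes.

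By gene, the mean number of summits was higher in shHNRNPU at 6 genes, equal at HNRNPUL2 and NUMA1, and lower at SATB1. The median difference over the 9 genes was 0.25 summits, and over all 18733 protein-coding genes with a summit in their window it was 0. Groups that did not overlap were found at 1 of the 9 genes, SAFB2, with shHNRNPU higher, and such separation was found at 3.54% of all genes in this direction and at 3.92% in the other. An exact permutation test over the 15 ways of choosing 2 control libraries cannot give a two-sided p below 0.133, and after Benjamini-Hochberg adjustment over all genes the p was 1 for every gene. No gene of the 18733 had an unadjusted p under 0.05 for that reason. A difference as high as the 1.5 summits of HNRNPU was found at 6.64% of all genes, and one as high as the 1.25 summits of HNRNPUL1, SAFB2 and MATR3 at 9.65%.

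Of the 67 loci, 23 were present in all 6 libraries and 22 in 1 library. Loci in all 6 made up 34.3% of the member loci and 20.7% of all loci. None of the 26 member loci present in both shLUC libraries was absent from all 4 shHNRNPU libraries, where 5.68% of all such loci, or 1.93% of all loci, were lost in this sense. Of the 31 member loci present in all 4 shHNRNPU libraries, 1 was absent from both shLUC libraries, and over the series this share was 3.59%, or 0.88% of all loci. Another 7 of the 31 lacked 1 of the shLUC libraries, so that 8 lacked 1 or 2, where 15.5% of all loci in the 4 shHNRNPU libraries did. These 7 depend on the match distance of 250 bp. At those in the windows of HNRNPUL2, SAFB, SAFB2 and SATB1 the lacking library had a summit 259 to 451 bp away. At the one in the HNRNPUL1 window its nearest summit lay 1382 bp away. Without shLUC repeat 1 there were 4 lost and 5 gained loci, and without shLUC repeat 2 there were 1 and 4, so these counts rested on having both controls. With 1 control either definition is met more easily, and the share of all loci that met it then was not counted. Of the 22 loci in 1 library, 17 were in a shHNRNPU and 5 in a shLUC library, at 4 against 2 libraries, and their median percentile was 11.4, near the weak end of the lists.

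**Figure D3:**
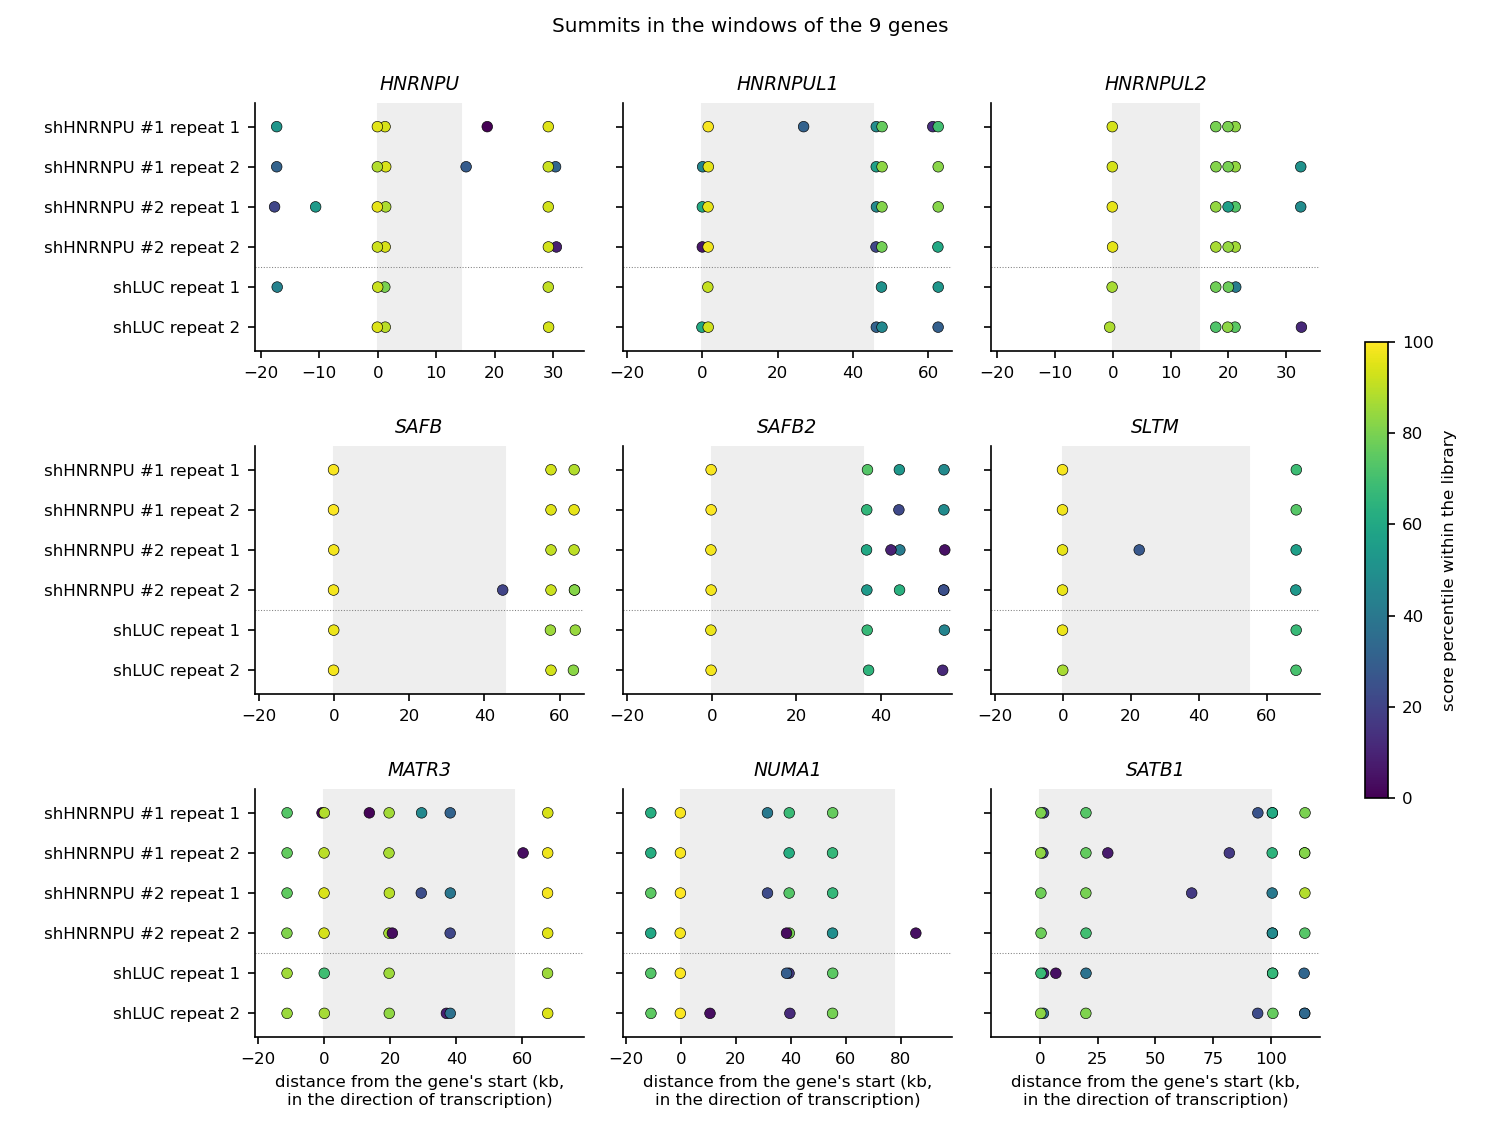
Summits of each library (rows) in the window of each gene, placed by distance from the start of the gene (horizontal axis, kb, in the direction of transcription) and coloured by score percentile within the library. Grey marks the body of the gene, and the columns of bright points at 0 kb are the promoter loci found in nearly every library.

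The loci common to all 6 libraries stood higher on average in the lists of the shHNRNPU libraries. Their mean percentile was 84.0 and 84.6 with shHNRNPU #1, 83.5 and 82.7 with shHNRNPU #2, and 73.8 and 78.5 with shLUC. Neither control reached the lowest shHNRNPU library. The means were 83.7 ± 0.787 (SD, n = 4) and 76.1 ± 3.30 (SD, n = 2), a difference of 7.57 points, where the 25519 loci of the series present in all 6 libraries gave −0.517. The difference was positive at 16 of the 23 loci and at 47.5% of all such loci, and its median was 4.49 against −0.291 points. The mean was raised most by a locus within NUMA1 (56.2 points) and by loci at CCDC97, a neighbour of HNRNPUL1 (31.0 and 32.1 points). None of these lay at the promoter of a member. At 7 of the 23 loci every shHNRNPU library was above both controls, against 10.9% of all loci in the 6 libraries, and at 1 locus every one was below, against 13.9%. These counts depend on the controls, since the lowest of the 6 values was that of shLUC repeat 1 at 10 loci and of shLUC repeat 2 at 6.

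The member loci also differed from all loci in their position along the genome. Of the 23 loci, 16 (69.6%) lay no more than 2000 bp from where a protein-coding gene starts or ends, against 40.7% of all loci in the 6 libraries. Of these 16, shHNRNPU was higher without overlap at 5 and lower at 0, where all loci near gene ends gave 13.8% and 7.92%. Chromosome 19 held 5 of the 23 loci, and on this chromosome 23.1% of all loci in the 6 libraries were higher without overlap and 4.18% lower. The median difference was 2.53 points on chromosome 19 and 0.535 points near gene ends. The part of position in the result was not tested.

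**Figure D4:**
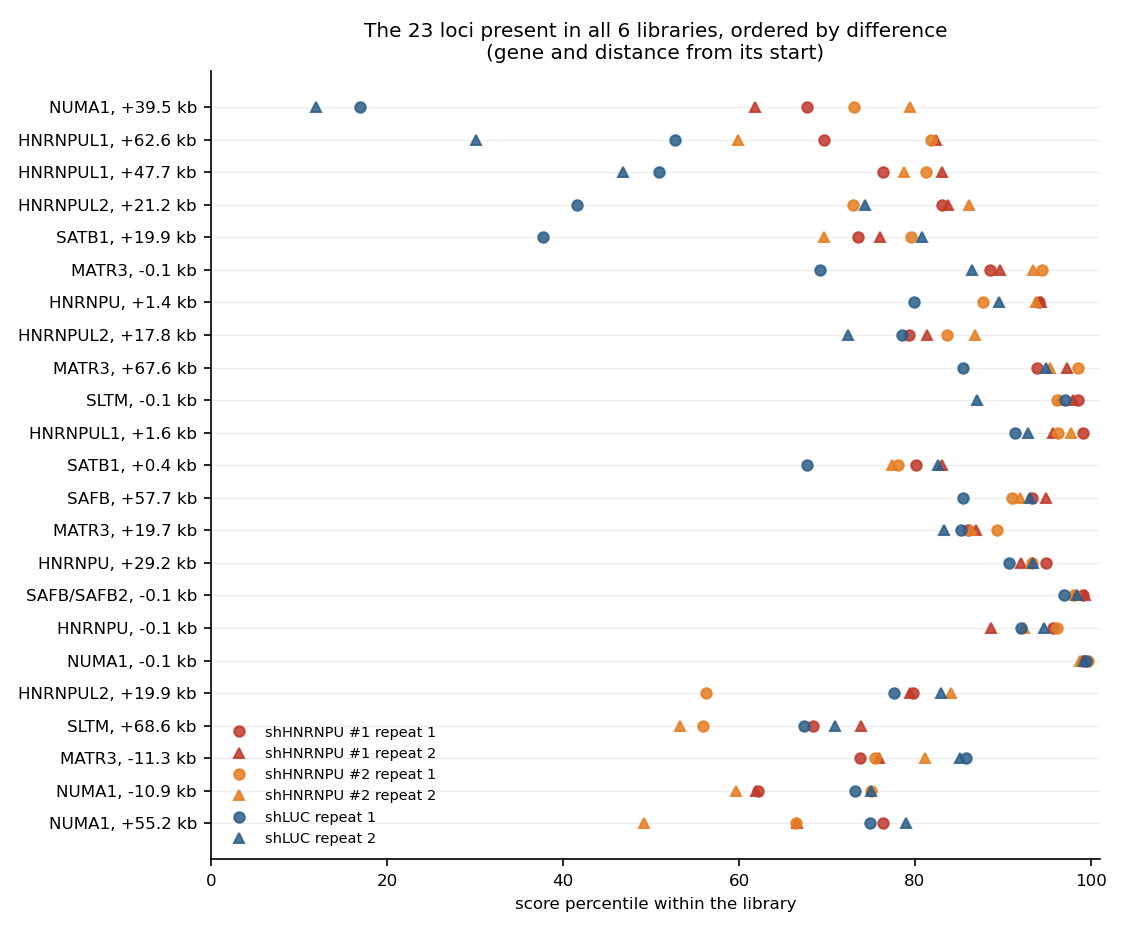
Score percentile within the library (horizontal axis) at each of the 23 loci present in all 6 libraries (rows, named by gene and distance from its start), ordered from the most positive difference at the top, with colour for the hairpin and shape for the repeat. The shLUC points lie to the left in the top rows, the NUMA1 row with 16.9 and 11.9 most of all, and to the right in the bottom rows.

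HNRNPU itself, at chr1:244850297-244864543 on the minus strand, had a strong promoter in every library. The percentile at its strongest locus, at −71 bp from the start, was 95.7 and 88.6 with shHNRNPU #1, 96.2 and 92.4 with shHNRNPU #2, and 92.0 and 94.7 with shLUC. The groups overlapped fully. The difference was −0.15 points (exact permutation test, two-sided p = 0.933). The difference at the strongest locus changed sign under several other settings, in some of which that was another locus. Inside the gene, 1369 bp after the start, a second locus had percentiles of 94.1, 94.3, 87.7 and 93.8 in the shHNRNPU libraries and 79.9 and 89.6 in the shLUC libraries. Here 3 shHNRNPU libraries stood above both controls and the fourth lay between them. The third of its loci in all 6 libraries lay 52 bp from the start of COX20, the gene of an assembly factor of cytochrome c oxidase, with 92.1 to 94.9 in shHNRNPU and 90.7 and 93.4 in shLUC. The window held 5, 6, 5 and 4 summits in shHNRNPU and 4 and 3 in shLUC, a difference of 1.5 (exact permutation test, two-sided p = 0.267). Both controls were at or below the lowest shHNRNPU library, which shared its value of 4 with shLUC repeat 1. Of the 9 loci of this window 4 were seen in 1 library only. The gene LOC124904588 overlaps the promoter and ends or begins 132 bp from the locus, so the summits cannot be assigned to one gene or the other.

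HNRNPUL1, at chr19:41262557-41307787 on the plus strand, had higher percentiles in shHNRNPU at its promoter. Its strongest locus lay at −244 bp from the second of its starts, with percentiles of 99.1 and 95.7 in shHNRNPU #1, 96.3 and 97.7 in shHNRNPU #2, and 91.3 and 92.8 in shLUC. Every shHNRNPU library was above both controls. The means were 97.2 ± 1.52 (SD, n = 4) and 92.1 ± 1.07 (SD, n = 2), a difference of 5.12 points (exact permutation test, two-sided p = 0.133, the smallest possible, and 0.58 after Benjamini-Hochberg adjustment over all genes). Of the 8 genes whose strongest locus was in all 6 libraries at this match distance, HNRNPUL1 alone had groups that did not overlap there, where 12.7% of all genes separated in this direction and 10.2% in the other. A difference at least as high was found at the strongest locus of 16.0% of all genes, and at 25.1% of all loci in the 6 libraries. Leaving out any 1 library gave differences from 4.36 to 5.88 points.

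The other loci of the HNRNPUL1 window in all 6 libraries belonged to its downstream neighbour CCDC97 and differed more. They are described because of their size, which was seen first. At 90 bp from the start of CCDC97 the percentile was 76.3 and 83.1 with shHNRNPU #1, 81.3 and 78.7 with shHNRNPU #2, and 50.9 and 46.8 with shLUC. The groups were well apart, with means of 79.9 ± 2.97 (SD, n = 4) and 48.8 ± 2.85 (SD, n = 2). The difference of 31.0 points (exact permutation test, two-sided p = 0.133, adjusted over all loci 0.538) was matched or passed by 1.10% of all loci in the 6 libraries. At 293 bp from the end of CCDC97 the percentile was 69.7, 82.4, 81.8 and 59.9 in shHNRNPU and 52.7 and 30.1 in shLUC. The groups did not overlap there either, the difference was 32.1 points, and 0.944% of loci were as high. It was 20.8 points without shLUC repeat 2. Thus each of the 3 loci of this window in all 6 libraries was higher in shHNRNPU without overlap. The same held for 0.228% of the 4834 genes with 3 or more such loci and for 1.15% of those on chromosome 19. Genes with more than 3 loci meet this less easily, so these shares do not give the rate for windows of 3. They are no test of HNRNPUL1, since the separation was seen first and includes the loci of CCDC97. At the first of the HNRNPUL1 starts the signal was weak, with no summit in shHNRNPU #1 repeat 1 and shLUC repeat 1, and with percentiles of 46.0, 60.7 and 6.19 in the other shHNRNPU libraries and 60.8 in shLUC repeat 2. The number of summits in the window was 6, 5, 5 and 5 in shHNRNPU and 3 and 5 in shLUC (exact permutation test, two-sided p = 0.533). The groups overlapped, since shLUC repeat 2 held as many as 3 of the shHNRNPU libraries.

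HNRNPUL2, at chr11:62712630-62727457 on the minus strand, gave no difference in summit number, with 4, 5, 5 and 4 summits in shHNRNPU and 4 and 5 in shLUC. Its promoter locus, at −82 bp from the start, had percentiles of 93.7 and 93.7 with shHNRNPU #1, 96.4 and 96.1 with shHNRNPU #2 and 87.1 in shLUC repeat 1. All 4 shHNRNPU values were above that of the control. The summit of shLUC repeat 2 lay 451 bp away, 59 bp from an end of the divergent neighbour TTC9C, with a percentile of 87.6, so it counted as a separate locus and the groups were not tested at 250 bp. With a match distance of 500 bp the locus was in all 6 libraries, every shHNRNPU value was above both controls and the difference was 7.64 points (exact permutation test, two-sided p = 0.133, the smallest possible). The 3 loci of this window in all 6 libraries lay downstream at BSCL2, the gene of seipin, which shapes lipid droplets. At 100 bp from a start of BSCL2 the percentile was 79.4, 81.4, 83.6 and 86.9 in shHNRNPU and 78.5 and 72.4 in shLUC. The groups did not overlap, with a difference of 7.38 points that 19.6% of all loci in the 6 libraries matched. It was 4.31 points without shLUC repeat 2 and 10.5 without shLUC repeat 1. At 31 bp from another BSCL2 start shLUC repeat 1 stood apart, with 41.6 against 74.3 in shLUC repeat 2 and 72.9 to 86.2 in shHNRNPU. The last of these loci went the other way, with 56.2 to 84.1 in shHNRNPU and 77.6 and 83.0 in shLUC, and overlapped.

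SAFB, at chr19:5623083-5668478 on the plus strand, and SAFB2, at chr19:5586999-5622776 on the minus strand, begin back to back and share 1 promoter locus. It was among the strongest summits of every library, with percentiles of 99.1 and 99.4 in shHNRNPU #1, 98.1 and 98.2 in shHNRNPU #2, and 97.0 and 98.4 in shLUC. The groups overlapped, with a difference of 1.02 points (exact permutation test, two-sided p = 0.4). The SAFB window held 3, 3, 3 and 4 summits in shHNRNPU and 3 and 3 in shLUC. One of them, 243 bp from the start of HSD11B1L, had 91.0 to 94.9 in shHNRNPU and 85.4 and 93.1 in shLUC, which overlapped.

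SAFB2 was the gene whose summit numbers separated, with 4, 4, 5 and 4 summits in shHNRNPU and 3 and 3 in shLUC. The difference was 1.25 summits (exact permutation test, two-sided p = 0.133, adjusted over all genes 1). It rested on the 1 gained locus of the 9 windows, at position 5578375 of chromosome 19, between SAFB2 and the long non-coding RNA gene TINCR. The percentile there was 52.9 and 22.01 with shHNRNPU #1 and 41.6 and 63.5 with shHNRNPU #2. These are middling to weak summits, and the nearest summits of the shLUC libraries lay 7653 and 7325 bp away. The scores were 8.20, 3.96, 5.72 and 11.9 in the same order, so the locus was not called gained where a score of at least 5 was required. With that score the summit numbers of SAFB2 no longer separated (difference 0.75, exact permutation test, two-sided p = 0.533), and NUMA1 separated in its place. They did not separate either with lists of one size (exact permutation test, two-sided p = 0.267) or with windows of 5 kb, where the difference was 0.

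SLTM, at chr15:58879050-58933679 on the minus strand, had few summits, with 2, 2, 3 and 2 in shHNRNPU and 2 and 2 in shLUC. Its promoter locus, at −68 bp from the start, had percentiles of 98.6, 98.0, 96.2 and 96.5 in shHNRNPU and 97.1 and 87.1 in shLUC. The groups overlapped, and the difference of 5.27 points (exact permutation test, two-sided p = 0.4) came with shLUC repeat 2 lying below every other library. It was 0.28 points without that library and 10.3 without shLUC repeat 1. The locus downstream of the gene was present in all libraries, at 53.3 to 73.8 in shHNRNPU and 67.3 and 70.9 in shLUC, and these overlapped.

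MATR3, at chr5:139274101-139331677 on the plus strand, had 4 loci in all 6 libraries, of which 3 separated the groups. Over the series 10.9% of such loci were higher in shHNRNPU without overlap and 13.9% lower. At the first of its starts, which the small nucleolar RNA host gene SNHG4 shares, the percentile was 88.5 and 89.6 with shHNRNPU #1, 94.5 and 93.4 with shHNRNPU #2, and 69.2 and 86.5 with shLUC. All shHNRNPU libraries were above both controls, and the controls differed from each other by more than the nearer of them differed from shHNRNPU. The difference of 13.7 points (exact permutation test, two-sided p = 0.133, adjusted over all loci 0.538) was reached by 10.0% of loci in the 6 libraries. It was 5.04 points without shLUC repeat 1 and 22.3 without shLUC repeat 2. At 59 bp after the second start the percentile was 86.0, 87.0, 89.3 and 86.4 in shHNRNPU and 85.3 and 83.3 in shLUC, a separation of 2.92 points that was 1.93 without shLUC repeat 2. A difference at least as high as 2.92 points was found at 32.3% of all loci in the 6 libraries. At −11290 bp from the first start the order was opposite, with 73.7, 75.9, 75.4 and 81.1 in shHNRNPU and 85.8 and 85.1 in shLUC. This was the only one of the 23 loci with every shHNRNPU library below both controls, by −8.93 points, and 19.3% of all loci in the 6 libraries were as low. The strongest locus of the window belonged to PAIP2, whose product binds the poly(A)-binding protein, with 93.9, 97.3, 98.5 and 95.4 in shHNRNPU and 85.5 and 94.9 in shLUC, and overlapped (exact permutation test, two-sided p = 0.267). The difference was 6.10 points, 1.42 without shLUC repeat 1 and 10.8 without shLUC repeat 2. The number of summits was 8, 5, 6 and 6 against 4 and 6, and also overlapped.

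NUMA1, at chr11:72002864-72080542 on the minus strand, kept a promoter near the top of every list. The percentile at −143 bp from its start, in a promoter region shared with LRTOMT, was 99.1, 99.2, 99.7 and 98.8 in shHNRNPU and 99.5 and 99.2 in shLUC. These overlapped, with a difference of −0.15 points (exact permutation test, two-sided p = 0.667). The number of summits was 5, 4, 5 and 6 in shHNRNPU and 5 and 5 in shLUC, so the means were equal. This changed when weak summits were left out, with a difference of 1.25 and groups apart for scores of at least 5 (exact permutation test, two-sided p = 0.133) and of 1 with lists of one size (exact permutation test, two-sided p = 0.533). A score of at least 5 removed both shLUC summits, but no shHNRNPU summit, at the locus described next, so this is not a separate result. The share of all genes apart with that score was not counted.

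Within the body of NUMA1 lay the member locus with the largest difference of the 23, which is described because its size was seen. At position 72041027 of chromosome 11, 39515 bp after the start, the percentile was 67.8 and 61.9 with shHNRNPU #1, 73.1 and 79.5 with shHNRNPU #2, and 16.9 and 11.9 with shLUC. All 4 shHNRNPU libraries were far above both controls. The scores were 12.5, 10.1, 12.7 and 20.1 in shHNRNPU and 3.17 and 2.81 in shLUC. The means of the percentile were 70.5 ± 7.51 (SD, n = 4) and 14.4 ± 3.54 (SD, n = 2), a difference of 56.2 points (exact permutation test, two-sided p = 0.133, adjusted over all loci 0.538). Of the 25519 loci in all 6 libraries 2 had a difference as high, itself included. With 1 hairpin against the controls it was 50.4 for shHNRNPU #1 and 61.9 for shHNRNPU #2, and leaving out any 1 library gave 53.2 to 59.1 points. The summits of the 6 libraries spread over 316 bp, and those of shLUC lay 124 and 192 bp from the centre, so the locus was in all 6 libraries only with a match distance above these. It was also not in all 6 with a score of at least 5 or with lists of one size, and its difference was 40.6 points when percentiles were taken among the loci in all 6 libraries. A weak locus nearby, 38497 bp after the start, held summits of shHNRNPU #2 repeat 2 and shLUC repeat 1 only, at percentiles of 2.98 and 29.5. Apart from the promoter, the other loci of the window in all 6 libraries had negative differences. One, 55240 bp after the start, had 49.2 to 76.4 in shHNRNPU and 74.9 and 79.0 in shLUC, and the other, at −10867 bp, had 59.6 to 75.0 and 73.2 and 75.0, so that the groups overlapped at both.

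**Figure D5:**
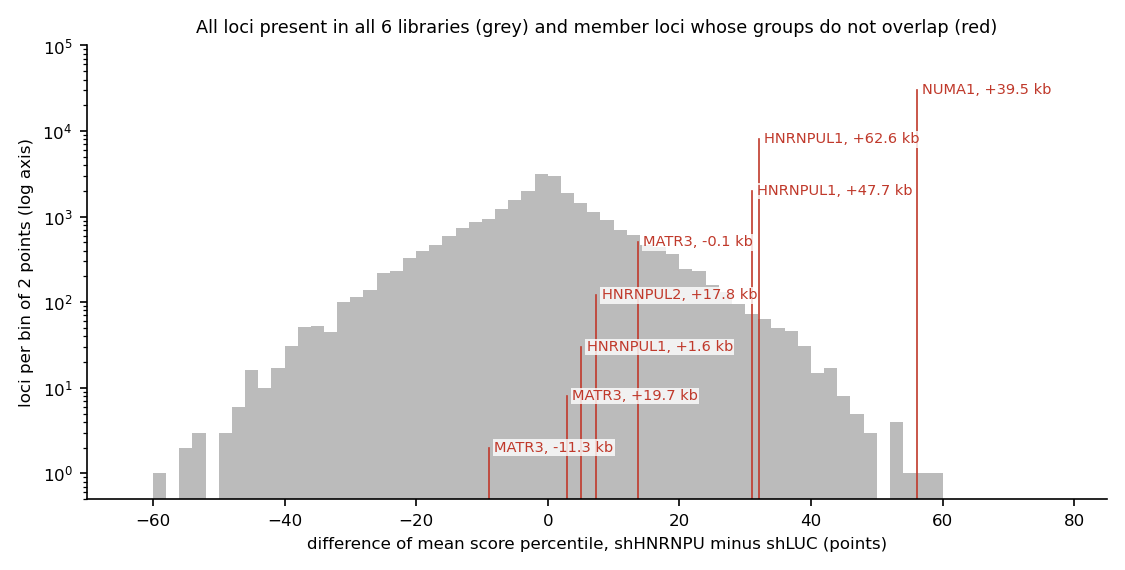
Number of loci present in all 6 libraries (vertical axis, log scale) by difference of mean score percentile, shHNRNPU minus shLUC (horizontal axis, points, in bins of 2 points), with red lines for the 8 member loci whose groups did not overlap, drawn at staggered heights only to fit their names. The NUMA1 locus at 56.2 points lies at the end of the distribution, the CCDC97 loci of the HNRNPUL1 window at 31.0 and 32.1 in its upper tail, and the others within its bulk.

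SATB1, at chr3:18345377-18445592 on the minus strand, had the lowest percentiles of the 9 genes at its strongest locus and was the only one with fewer summits in shHNRNPU. Its strongest locus, 376 bp after the outermost start and 21 bp from that of the antisense gene SATB1-AS1, had percentiles of 80.1, 83.0, 78.1 and 77.4 in shHNRNPU and 67.7 and 82.7 in shLUC. The groups overlapped (difference 4.49 points, exact permutation test, two-sided p = 0.533). The window held 6, 7, 5 and 4 summits in shHNRNPU and 6 and 6 in shLUC, a difference of −0.5 that turned positive in 3 other settings. Beyond the end of the gene, at position 18330902 of chromosome 3, the percentile was 79.8, 81.3, 88.6 and 73.8 in shHNRNPU and 33.8 in shLUC repeat 2. All 4 shHNRNPU libraries were above this control, and shLUC repeat 1 had its nearest summit 333 bp away, at a percentile of 32.8. At position 18345055, also beyond the end, the order was opposite, with 60.9, 64.7, 40.4 and 47.6 in shHNRNPU and 66.6 in shLUC repeat 1. There shLUC repeat 2 had its nearest summit 296 bp away, at a percentile of 76.2. Neither locus was in all 6 libraries, and no share over all loci was counted for them.

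Other genes of nuclear matrix and scaffold proteins were read in the same way. Of 11 such genes (AKAP8, AKAP8L, ARID3A, ARID3B, BANP, CIZ1, RBMX, SRRM1, SRRM2, TOP2A and TOP2B), the mean summit number was higher in shHNRNPU at 6, lower at 3 and equal at 2, with a median difference of 0.25. Groups did not overlap at 1 of the 11, where 3.54% of all genes were higher without overlap and 3.92% lower. This gene was ARID3A, which encodes a DNA-binding protein with an AT-rich interaction domain. It had 7, 7, 7 and 6 summits in shHNRNPU and 5 and 5 in shLUC. At the strongest locus, present in all 6 libraries for 9 of the genes, ARID3A had percentiles of 84.7, 84.6, 85.4 and 72.8 in shHNRNPU and 51.2 and 72.6 in shLUC. It was higher without overlap by 19.98 points, and SRRM1, a splicing coactivator, by 0.56 points. Among all genes 12.7% separated in this direction at their strongest locus and 10.2% in the other. ARID3A lies on chromosome 19, where 23.1% of all loci in the 6 libraries were higher without overlap. The strongest locus in the window of CIZ1, a protein of the nuclear matrix linked to DNA replication, was lower without overlap by −3.80 points. It lay at position 128218885 of chromosome 9, outside the gene (128166065 to 128204222), and so not at its promoter. No adjusted p passed 0.05 for any gene in these comparisons.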

How the data were processed

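ATAC-seq was made on 6 libraries of H1 cells. According to the submitters' processing notes the tools were cutadapt, Bowtie2, SAMtools, MACS2 and deepTools, with hg38, and versions and settings are not given in the sources used here. The authors deposited 1 list of summits per library, called on each library alone, with a score that is the −log10 of the q-value. Scores start just above 1.30, were not normalized between libraries and carry no read counts, so the depth, and with it any limit of detection, is unknown. Absence means only that no peak was called. The article supplied with the series describes another experiment and gave no methods for these files.

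Groups and repeat numbers came from the titles. Scores were turned into percentiles within a library. Loci were built by taking the summit of highest percentile and absorbing summits within 250 bp, and a library held a locus with a summit within 250 bp of its centre, so that a summit could count at 2 neighbouring loci. A lost locus was in both shLUC libraries and no shHNRNPU library, and a gained one in all 4 shHNRNPU and no shLUC library. The strongest locus of a gene had the highest mean percentile over the libraries holding it, and was chosen anew under each alternative. Differences are shHNRNPU minus shLUC, tested by an exact permutation test over 15 assignments, two-sided by doubling the smaller tail, and adjusted after Benjamini and Hochberg over all genes or loci. The members, the lists and the alternatives were chosen with earlier results of these data known. Named were all members, their strongest, lost and gained loci, and the separating genes of the further list, and other loci were named after their values were seen. Of the further list 1 gene is not reported here.

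Gene positions, promoters and starts are those of RefSeq (GRCh38.p14), and all 9 genes matched. Near gene ends lay 26.1% to 30.7% of the summits of a library, against 7.57% to 8.60% with the ends moved by 10000 bp. Exons and introns were not used here. Repeats shared 1.84% to 2.15% of exact positions and were kept apart. The code was tested on simulated data. Alternatives were windows of 5 and 50 kb, match distances of 100 and 500 bp, absence within 1000 bp, summits per 10000, scores of 5 or more, lists cut to the shortest, 1 hairpin at a time, leaving out each library, permutation within repeats, and percentiles among loci in all 6 libraries. Scripts ran under Python 3.11.15 (pandas 2.3.3, numpy 2.4.6, matplotlib 3.10.9, scipy 1.17.1).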

Additional observations from a re-analysis of the deposited data

Results flagged for a closer look

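Among the 4 shHNRNPU libraries 1 library stood apart from 3 equal values in the number of summits of 4 windows. HNRNPUL1 had 6 summits in shHNRNPU #1 repeat 1 and 5 in the others. SAFB had 4 in shHNRNPU #2 repeat 2 and 3 in the others, SAFB2 had 5 in shHNRNPU #2 repeat 1 and 4 in the others, and SLTM had 3 in shHNRNPU #2 repeat 1 and 2 in the others. Each gap is 1 summit. Of 27 results examined 4 were singled out in this way. The rule singles out about 1 group in 20 by chance for continuous values. That rate does not apply to small whole numbers, where 3 equal values and 1 other are common, so nothing is read from the number of cases.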

How the results depend on the processing

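Under other settings, 321 values for single genes or loci kept their direction, 16 reversed and 8 became 0. Another 28 belong to the summit numbers of HNRNPUL2 and NUMA1, whose difference of 0 has no direction and went both ways, from −0.5 to 0.5 and from −0.5 to 1.25. At fixed positions, those of the member loci whose groups did not overlap, none of 106 reversed. These loci were picked for that separation, so leaving out libraries could not reverse them. The difference in summits over the 9 windows (5.25) was 7 with lists of one size, 2.5 with windows of 5 kb and 3.25 to 7.25 leaving out 1 library. The number of genes with separate summit numbers (1) was 0 with lists of one size or windows of 5 kb, 3 with 50 kb, 2 per 10000 summits, 2 with either hairpin alone and 1 to 3 leaving out 1 library. Lost loci (0) numbered 2 with shHNRNPU #2 alone and 0 to 4 leaving out 1 library. Gained loci (1) numbered 2 with a score of at least 5, 0 with 5 kb, 2 with a match of 100 bp and 1 to 5 leaving out 1 library. The difference in mean percentile (7.57) was 6.74 with a score of at least 5, 9.83 with 5 kb, 5.46 with 50 kb, 4.66 with a match of 100 bp, 9.34 with shHNRNPU #1 alone, 10.6 among loci in all 6 libraries, a setting chosen after seeing the data, and 5.83 to 9.20 leaving out 1 library. Separate strongest loci (1) numbered 2 with 5 kb, 50 kb, a match of 500 bp, shHNRNPU #2 alone or percentiles among loci in all 6 libraries, 5 with shHNRNPU #1 alone and 1 to 5 leaving out 1 library. The counts that leave out a library or use 1 hairpin rest on fewer samples, where loss, gain and separation are met more easily. Shares over all genes and loci were not counted under the other settings, and the cause of the other shifts was not tested.

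Reversed values were as follows. The strongest locus was chosen anew under each setting, so a reversed value can belong to another locus than the main one. SATB1 summits differed by 0.5 with a score of at least 5, 0.25 with lists of one size and 0.5 with shHNRNPU #1 alone, and SLTM summits by −0.75 with 50 kb. The strongest locus of HNRNPU differed by 0.0762 with a score of at least 5, 0.208 with lists of one size, 1.46 and 0.902 with shHNRNPU #1 or #2 alone, 0.649 among loci in all 6 libraries and −1.49 to 1.38 leaving out 1 library (positive in 4 cases). That of SATB1 differed by −20.7 with 50 kb, −2.25 with a match of 100 bp and −3.00 (without shLUC repeat 1) to 5.23 leaving out 1 library. The −20.7 belongs to another locus, since a wider window does not change the percentile at a fixed position. For HNRNPU, the 1.46 with shHNRNPU #1 alone is that of the locus near the start of COX20.

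Equal repeat numbers showed no shared deviation, with correlations of −0.0495 to 0.0106. This does not tell whether libraries of equal number were processed together. The replicate block, with 9 assignments, leaves every difference as it is and changes only the p. At the NUMA1 locus (56.2 points) the exact permutation test gave p = 0.222, the smallest possible. No call under 0.05 could therefore arise in either form of the test. Depth is unknown, so absence of a summit cannot be told apart from lack of reads.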
